A study of Mus musculus with 20 samples.

Results

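The ribosomal protein pseudogenes described here are the genes whose symbol is that of a ribosomal protein gene followed by -ps, with or without a number. A gene was taken when it was listed at 1 TPM (a share of all transcripts, scaled for gene length) or more in at least 2 libraries of an expression table. This rule chose 183 of the 259 symbols with such a name, among 38366 gene symbols in all. Of the 183, 142 passed in the table of the fixed E10.5 embryo, 151 in the table whose libraries carry the label E10.5 fresh-frozen embryo, 119 in brain of E12.5 and 100 in that of E16.5, and 81 passed in all 4 tables. Among the genes just inside the rule, the second highest TPM was 1.15 for Rpl17-ps11 and 1.2 for Rps10-ps3. Just outside it lay Rpl26-ps2 at 0.96, Rpl10a-ps4 at 0.947 and Rpl18-ps1 at 0.944. The levels given below are therefore values the genes were chosen by.

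The study used MAPIT-seq, in which an antibody brings a fusion of 2 deaminases, rAPOBEC1-pAG-hADAR2, to the RNA near a protein, so that A-to-G and C-to-T edits read out by sequencing mark the RNA that lay close to it. All animals were wild-type C57BL/6J mice. In each tissue 2 libraries had an antibody against G3BP1, an RNA-binding protein of stress granules, and 2 had rabbit IgG, both after 0.2% formaldehyde and with a guinea pig anti-rabbit secondary antibody. The 2 embryo tables also hold 2 untreated libraries each, with no antibody and no fixation in the labels, while those of the fixed embryo carry the treatment label Fixed. The 20 libraries form 10 groups of 2. The labels do not say whether replicates came from separate animals, so p-values measure at most the spread between these libraries.

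Ribosomal protein genes give rise to processed pseudogenes when their abundant mRNA is reverse transcribed and inserted elsewhere in the genome. Such copies lack introns and most lack a promoter of their own, and young copies are nearly identical to the spliced mRNA of the parent. A short sequencing read from the parent can then be placed on the copy, and the reverse. Each parent encodes 1 protein of the small (Rps) or the large (Rpl) ribosomal subunit.

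Before the results, the tissues were checked with marker genes. The summed TPM of 3 heart genes (Myl7, Myh6 and Tnnt2) was 2100 to 3530 in the fixed embryo libraries and 0.311 to 12.1 in those labelled as fresh-frozen embryo of the same age. In the latter, 4 neuronal genes (Gria2, Tubb3, Stmn2 and Snap25) summed to 3070 to 4600 TPM, against 466 to 1030 in the fixed embryo and 2570 to 4470 in the brain tables. The libraries labelled fresh-frozen thus went against their label, and no value of theirs is read here as a value of whole embryos. TPM carries no read number, so the depth behind the expression values is unknown.

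The gene models of GENCODE M21 on GRCm38 held all 183 genes by gene ID. Of these, 169 were processed pseudogenes, 7 transcribed processed pseudogenes, 6 protein-coding genes and 1 a lincRNA. They lay on 20 chromosomes, 179 had a single exon, and their median length was 483 bases. Aligned to the best-scoring transcript of the parent, the copies had a median identity of 98.4%, with 61 at 99% or more and 13 at 100%. The alignment of 5 copies covered less than 20% of the parent. A gene on the same strand overlapped 25 of the 183.

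The sequences below show the edited sites with the parent's sequence beside them. Each pair is the stretch around the highly edited site with most reads of a named pseudogene, 14 bases to either side, with the aligned stretch of its parent. All are 5′ to 3′ on the strand of the RNA, from the GENCODE M21 transcripts, and capitals mark the bases that differ between copy and parent.
Rpsa-ps10: gcgcaggccactgaAtgggttggagccac
Rpsa: gcgcaggccactgaGtgggttggagccac
Rps19-ps6: gggggccgcaagctAacAcctcagggaca
Rps19: gggggccgcaagctGacGcctcagggaca
Rps7-ps3: aatggcgagaagccAgacgagttcgagtc
Rps7: aatggcgagaagccGgacgagttcgagtc
Rpl34-ps1: aaagcacctaaatcCgcatgtggcgtgtg
Rpl34: aaagcacctaaatcTgcatgtggcgtgtg
Rpl36-ps12: ccgggaggtgtgcgActtcgcaccctacg
Rpl36: ccgggaggtgtgcgGcttcgcaccctacg
Rpl7-ps7: ctgcggattgtggaAccatacattgcatg
Rpl7: ctgcggattgtggaGccatacattgcatg
At the site, base 15 of each stretch, the parent has the base that the editing table counts as edited.

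Across the genes that passed the rule, the pseudogenes were a sizeable fraction of ribosomal protein TPM. In the fixed embryo their summed TPM was 16638 and 16671 in the untreated, 12662 and 13630 in the IgG and 19355 and 18185 in the G3BP1 libraries. In E12.5 brain it was 15428 and 13172 with IgG and 20260 and 23788 with G3BP1. E16.5 brain was lower, at 5001 and 6202 with IgG and 6386 and 6068 with G3BP1. The libraries labelled fresh-frozen held 2329 to 3477 TPM of them. These sums were 1.27% to 1.94% of all TPM in the fixed embryo, 1.32% to 2.38% in E12.5 brain, 0.5% to 0.639% in E16.5 brain and 0.233% to 0.348% in the libraries labelled fresh-frozen. A few genes carried much of the sum, and the 10 highest held 60.4%, 39.9%, 57.9% and 59.2% of it in the fixed embryo, the libraries labelled fresh-frozen, E12.5 and E16.5 brain.

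**Figure D1:**
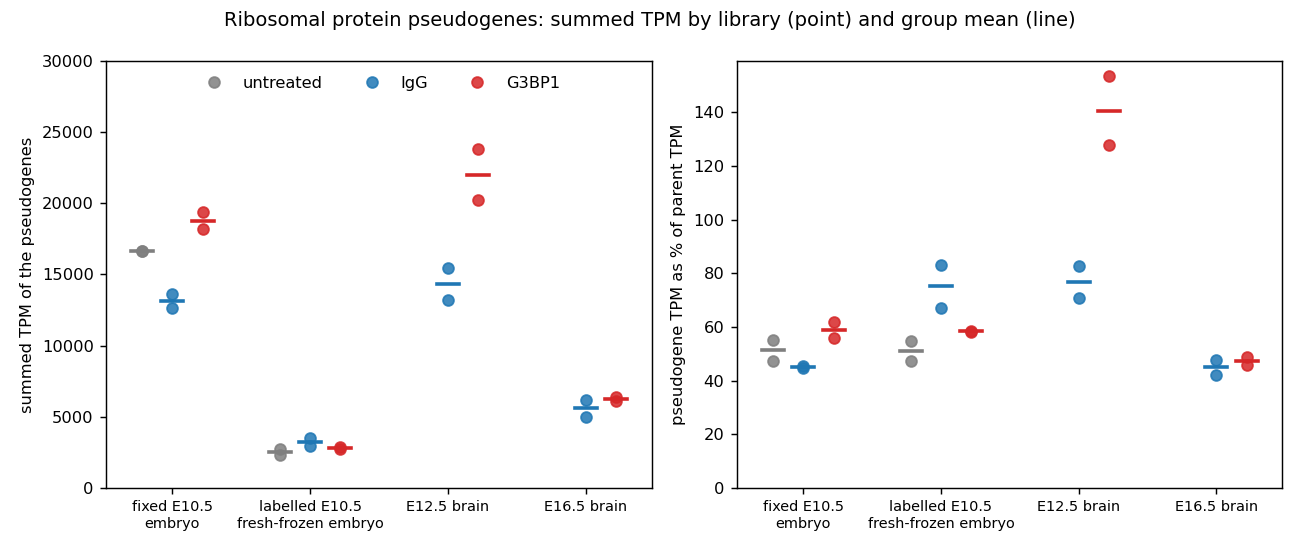
Summed TPM of the 183 pseudogenes (left, TPM) and the same sum as a percentage of the summed TPM of their 56 parent genes (right), by table. Points are libraries, lines are group means of 2 libraries; the 2 G3BP1 libraries of E12.5 brain, at 127.8% and 153.6%, are the only ones in which the pseudogenes summed to more than their parents.

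The sum over the copies was also set beside that over the 56 parents. In E12.5 brain the mean parent sum was 18640 TPM with IgG and 15674.5 with G3BP1, while the copies were higher with G3BP1. Both sums were higher with G3BP1 in the fixed embryo (parents 29130 and 31917) and E16.5 brain (12446.5 and 13195). In the libraries labelled fresh-frozen the parents were higher with G3BP1 (4259 and 4792.5) and the copies lower. In E12.5 brain the pseudogenes reached 82.66% and 70.76% of the parents' TPM with IgG and 127.8% and 153.6% with G3BP1. The groups did not overlap, and the mean was 76.7% ± 8.41 (SD, n = 2) with IgG and 140.7% ± 18.2 (SD, n = 2) with G3BP1. In the fixed embryo the values were 44.76% and 45.48% with IgG, 61.86% and 55.87% with G3BP1 and 55.3% and 47.4% untreated, so that both G3BP1 libraries lay above both untreated libraries and both IgG libraries below them. In the libraries labelled fresh-frozen both IgG libraries were highest, with 83.24% and 67.1% for IgG, 58.08% and 58.53% for G3BP1 and 54.78% and 47.46% untreated. In E16.5 brain IgG (42.05% and 47.71%) and G3BP1 (48.78% and 45.62%) overlapped. No test was run on these sums, since an exact permutation of 2 libraries against 2 cannot give a two-sided p below 0.333.

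Most copies were far below their parent, and a minority far above it. The median ratio of copy to parent TPM was 0.0378 in the fixed embryo, 0.113 in the libraries labelled fresh-frozen, 0.113 for E12.5 brain and 0.075 for E16.5 brain. The copy exceeded the parent for 21 of 142, 23 of 151, 23 of 119 and 19 of 100 genes in the same order, and 15 genes did so in all 4 tables. Those 15 were Rpl10a-ps1, Rpl14-ps1, Rpl17-ps3, Rpl17-ps10, Rpl23a-ps3, Rpl31-ps8, Rpl36a-ps2, Rpl39-ps, Rpl9-ps6, Rps6-ps4, Rps7-ps3, Rps16-ps2, Rps19-ps6, Rps23-ps1 and Rps27a-ps2.

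**Figure D2:**
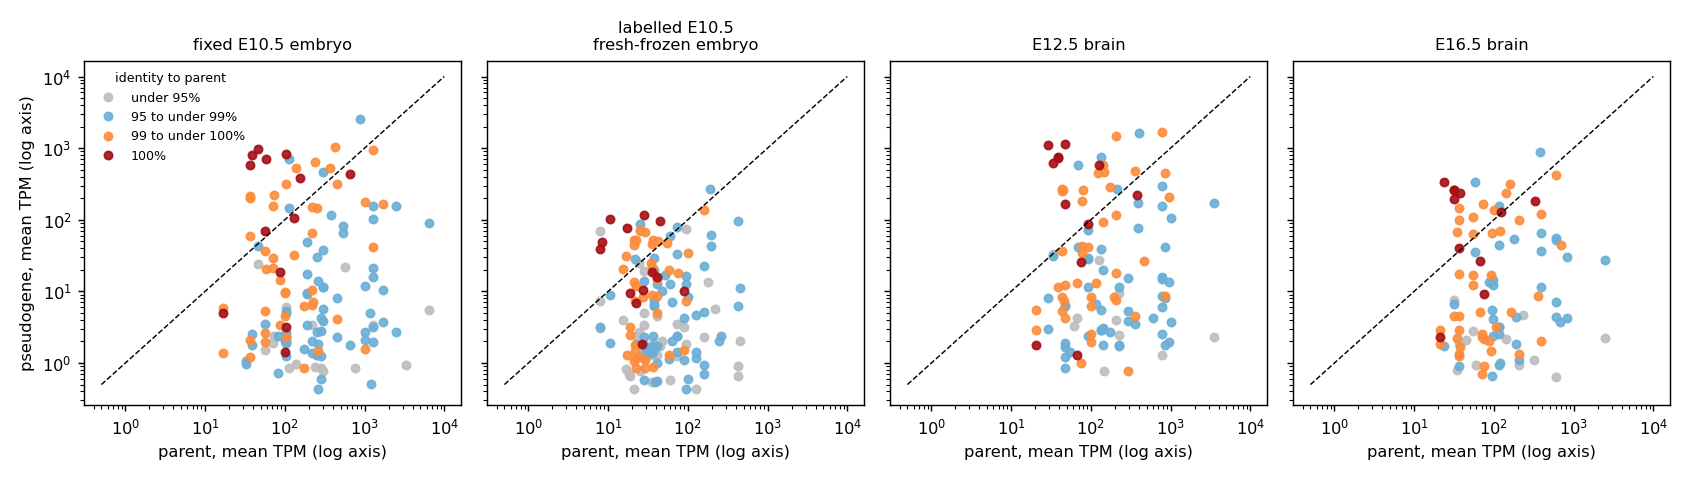
Mean TPM of each pseudogene that passed the rule against the mean TPM of its parent, over the libraries of a table (both axes logarithmic), coloured by identity to the parent. The dashed line marks equal TPM; of the 13 copies identical to the parent over their aligned length (dark red), several lie far above the line where the parent is low, and others lie below it.

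Copies of small subunit proteins gave the most extreme case. Rps6-ps4, a copy of Rps6, the ribosomal target of S6 kinase, is annotated at chr2:75191073-75191822 on the minus strand, opposite 2600014E21Rik, and was identical to its parent over all 750 bases. In E12.5 brain it was listed at 861.6 and 706.3 TPM with IgG and at 1412 and 1378 TPM with G3BP1. Its parent Rps6 was listed at 41.6 and 28.5 TPM with IgG and at 26.2 and 21.4 TPM with G3BP1 in the same libraries. The copy was thus 37 times the parent there, and 20.6, 9.58 and 14.1 times the parent in the fixed embryo, the libraries labelled fresh-frozen and E16.5 brain. Rps16-ps2 and Rps23-ps1, also identical to their parents over their length, stood at 16.3 and 12.1 times the parent in the fixed embryo and 19 and 19.2 times in E12.5 brain. Rps23 encodes a protein of the decoding centre and Rps16 one that reaches toward the peptidyl site. Rps10-ps2, at 98.99% identity, was listed at 667.7 to 735.3 TPM in the 6 fixed embryo libraries beside 105.6 to 120.2 TPM for Rps10. It stood at 7.23 to 16.2 TPM in the libraries labelled fresh-frozen, where Rps10 had 42.8 to 74.2 TPM, so the copy lay above its parent in the first table and below it in the second.

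Rpsa-ps10, a copy of the gene for the laminin receptor-like protein Rpsa, had 1506 and 1193 TPM with IgG and 2024 and 2001 TPM with G3BP1 in E12.5 brain, the highest mean of any copy there. Rpsa itself had 871.1 and 897.2 TPM with IgG and 705.1 and 643.7 TPM with G3BP1. In that table the G3BP1 libraries were above the IgG libraries for the copy and below them for the parent. Rps24-ps3, on chromosome X, had 1216 and 861 TPM with IgG and 1719 and 2128 TPM with G3BP1 in E12.5 brain, beside 174.7 to 219.3 TPM for Rps24. It was 7.24 times the parent there and 0.861 times the parent in the libraries labelled fresh-frozen. Rps7-ps3, above its parent in all 4 tables, which overlaps Rpl7a-ps12 on the same strand, ranged from 492.4 to 749.5 TPM in the fixed embryo beside 206.6 to 286.1 TPM for Rps7. Rps2-ps10 was below its parent in every table, at 0.171, 0.0767, 0.528 and 0.305 times Rps2.

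Copies of large subunit proteins included the highest value of all. Rpl14-ps1, at chr7:45324965-45325617 on the plus strand and opposite Trpm4, was listed at 2450 and 2557 TPM untreated, 2344 and 2523 TPM with IgG and 2786 and 2783 TPM with G3BP1 in the fixed embryo. Rpl14 had 821.5 to 957.5 TPM in these libraries, and the copy was 2.96, 1.4, 4.14 and 2.33 times the parent in the 4 tables. The alignment of this copy held 4 mismatches and 3 gap bases at 98.93% identity. Rpl36a-ps2, identical to Rpl36a over 321 bases and inside Ddah1 on the same strand, had 799.3 to 1172 TPM in the fixed embryo against 40.5 to 55.6 TPM for its parent. Between the brain stages this copy had a log2 change of -1.20 and Ddah1 of 2.43. Other copies moved with their host, as Rpl17-ps8 changed by -2.03 between these stages and its host Heph by -2.23. Rpl31-ps8, identical to Rpl31, whose protein lies near the exit of the nascent chain tunnel, was 24.1 times the parent in E12.5 brain and 8.01 times in the fixed embryo. Rpl23a-ps3, with 1 mismatch to Rpl23a, another protein of the tunnel exit, was 2.29 to 4.21 times the parent over the 4 tables.

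Copies of higher identity were listed at higher levels. In the fixed embryo the median TPM was 382 over the 13 copies at 100% identity, 17.7 over the 46 listed copies at 99% to under 100%, 2.75 over 75 at 95% to under 99% and 0.862 over 26 below 95%. In E12.5 brain the same medians were 221, 13, 2.95 and 0. Across the copies that passed in a table, Spearman's rho between identity and mean TPM was 0.47, 0.37, 0.427 and 0.402 in the order of the tables above. The rho between the TPM of copy and parent lay between -0.0371 and 0.0724. These are descriptions across genes that share libraries and, for copies of 1 parent, sequence. Reads that fit copy and parent equally well cannot be assigned by sequence, and how such reads were counted is not given in the sources used here. Every TPM level of a copy or parent, and every change in TPM, given above and below is uncertain for that reason.

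Between antibodies no pseudogene passed the test of expression. limma on log2(TPM + 1), fitted over all genes of a table and adjusted by Benjamini-Hochberg, called 0 of 142 copies for G3BP1 against IgG in the fixed embryo. Over all 19144 genes it called 0.0%, and 47 of the copies had an unadjusted p under 0.05, beside 1153 of all genes. The median log2 change of the copies tested was 0.48, against -0.12 over all genes and 0.06 over the parents. In E12.5 brain 0 of 119 copies were called, with 0.0% of all 18010 genes, and 49 copies had an unadjusted p under 0.05, beside 2452 of all genes. There the median was 0.65 for the copies, -0.15 for all genes and -0.20 for the parents. In E16.5 brain 0 of 100 copies were called, beside 0.0108% of all genes, with 22 copies and 1841 of 18564 genes at an unadjusted p under 0.05 and medians of 0.15 for the copies and -0.02 for all genes. In the libraries labelled fresh-frozen 0 of 151 copies were called, beside 0.034% of all genes, with 23 copies and 2773 of 23545 genes at an unadjusted p under 0.05 and medians of -0.10 and -0.0048. Without the second IgG library of E12.5 brain, 8 of 111 copies and 174 of 16983 genes were called.

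The values of single libraries were also compared without a test. Of the 142 copies of the fixed embryo 77 were higher in both G3BP1 libraries than in both IgG libraries, beside 9.76% of all genes under the same TPM rule, and 10 were lower in both, beside 36.1%. In E12.5 brain 59 of 119 were higher in both, beside 14.8% of all genes, and 5 were lower in both, beside 33.7%. In E16.5 brain 28 of 100 were higher, beside 17.8%, and 9 lower, beside 23.5%. Among libraries labelled fresh-frozen 14 of 151 were higher, beside 21.4%, and 34 lower, beside 21.2%. The same sets of libraries gave 24, 6, 19 and 21 of the 56 parents higher in both G3BP1 libraries in the fixed embryo, E12.5 brain, E16.5 brain and the libraries labelled fresh-frozen, and 8, 30, 7 and 10 lower in both. Copies that passed the rule through 1 antibody alone had to differ, so these counts describe the genes and support nothing further.

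The comparison of IgG with untreated libraries called copies in 1 of its 2 tables. limma called 0 of 142 copies of the fixed embryo and 0.0% of all genes, with 43 copies at an unadjusted p under 0.05, beside 2658 of 19144 genes. Without the first untreated library 6 of 139 copies were called higher and 13 lower, beside 440 and 93 of 18733 genes. There 45 copies were lower in both IgG libraries than in both untreated ones, beside 10.4% of all genes, and 16 were higher, beside 33.7%. Among those labelled fresh-frozen 14 of 151 copies were called higher with IgG, beside 5.36% of all genes, and 2 lower, beside 6.34%. Fewer copies, and fewer of all genes, were called whenever a single IgG or untreated library was left out. The median log2 change of the copies tested was 0.31 with all libraries, beside 0.02 over all genes. It was 0.07 and 0.53 without the first or second IgG library, and 0.25 and 0.34 without the first or second untreated library. Of the parents 1 of 56 was called higher and 6 lower, and of the 82 cytosolic ribosomal protein genes 0 were called higher and 11 lower. In single libraries 43 copies were higher in both IgG libraries, beside 28.5% of all genes, and 16 lower, beside 27.2%. IgG libraries share the untreated libraries' tissue label but differ in formaldehyde, antibodies and the deaminase fusion together, and these cannot be told apart here.

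Among the copies called in the libraries labelled fresh-frozen, Rpl23a-ps14, inside Cep112 on the same strand, had 135 and 121.2 TPM with IgG, 81.3 and 104.2 TPM with G3BP1 and 36.5 and 39.3 TPM untreated. It was higher with IgG by 1.73 ± 0.15 (log2 and SE, limma adjusted p = 0.00603), while Cep112 changed by 0.05 (adjusted p = 0.862). This copy was listed at 0 in all E12.5 and E16.5 brain libraries and in 5 of the 6 fixed embryo libraries. Rpl38-ps2, identical over its length to Rpl38, whose protein is needed for translation of Hox mRNAs, had 21.5 and 42.1 TPM with IgG and 3.92 and 4.47 TPM untreated. Its change was 2.59 ± 0.32 (log2 and SE, limma adjusted p = 0.0105). Rpl28-ps3 had 26.2 and 13.7 TPM with IgG and 2.13 and 1.21 TPM untreated, and Rpl31-ps12, inside Spag6l, 18.3 and 22.3 against 5.57 and 6.35 TPM. Spag6l changed by 0.74 (limma adjusted p = 0.133), beside 1.61 for Rpl31-ps12. Rpl31-ps5 had 9.16 and 6.38 TPM with IgG and was listed at 0 in both untreated libraries. Rps19-ps11 went the other way, listed at 0 in both IgG libraries and at 4.82 and 5.49 TPM untreated. These last 2 copies passed the TPM rule only through the groups where they were high.

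A few sites of the copies were edited in nearly every read, and their number was the same in each library of a table. Sites covered by at least 10 reads in each library of their table were kept, and a site was called highly edited where 50% or more of its reads had the edited base. This share was named by the rule and is a description. Of 186 kept sites in 33 copies of the fixed embryo, 9 were highly edited in each of the 6 libraries, untreated ones included, which is 4.84% (95% exact binomial interval 2.24% to 8.99%, counting error only). In the libraries labelled fresh-frozen 4 of 56 sites (7.14%, interval 1.98% to 17.3%) were highly edited in each of the 6 libraries. In E12.5 brain 9 of 330 (2.73%, interval 1.25% to 5.11%) and in E16.5 brain 12 of 487 (2.46%, interval 1.28% to 4.26%) were highly edited in each of the 4 libraries. Over all listed genes the share was 0.117% to 0.13% in the fixed embryo, 0.0305% to 0.0343% in the libraries labelled fresh-frozen, 0.045% to 0.0576% for E12.5 brain and 0.0513% to 0.056% for E16.5 brain. The parents had 300, 164, 602 and 884 kept sites in these tables, and 0 were highly edited apart from 1 site in 1 G3BP1 library of E16.5 brain. Processed pseudogenes of other genes had shares of 7.27% to 7.41%, 5.73%, 3.24% and 5.79% in the order of the tables above, and no test compared these with the ribosomal protein copies.

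**Figure D3:**
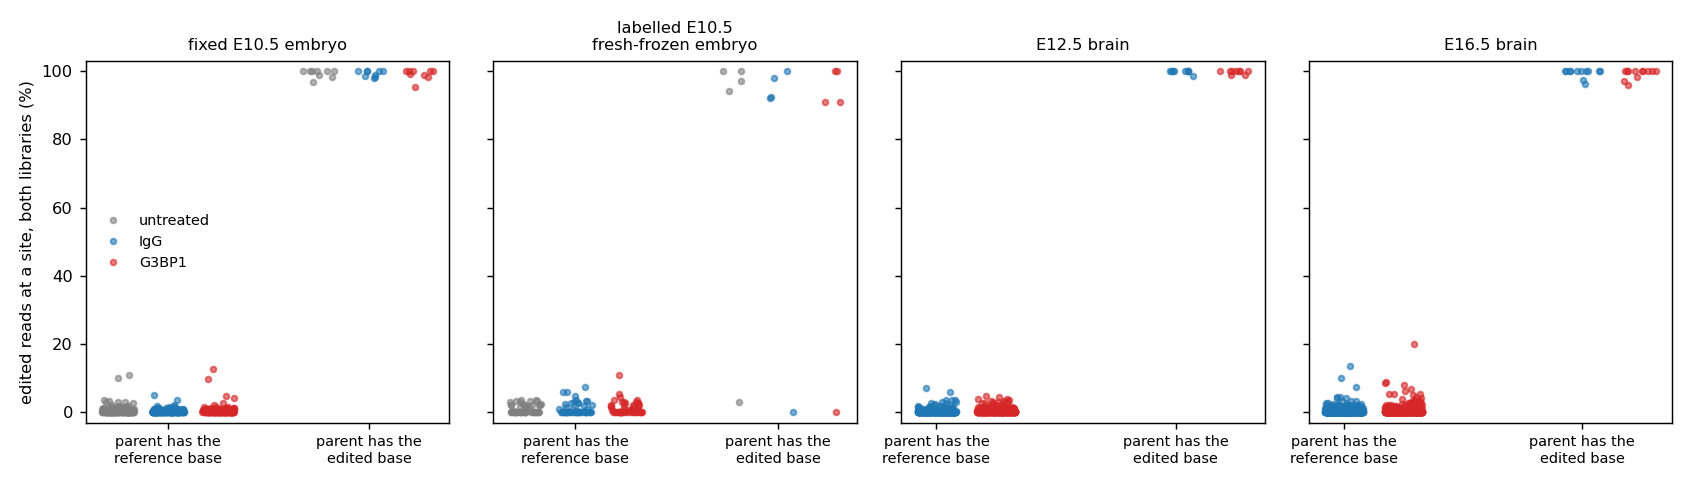
Percentage of reads with the edited base at each kept site of the pseudogenes, pooled over the 2 libraries of an antibody, by table and by the base the parent transcript has at the aligned position. Sites where the parent has the reference base lie at 20% or below, and sites where it has the edited base lie above 90% with 1 exception in the libraries labelled fresh-frozen.

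At the highly edited sites the parent had the edited base. The aligned parent base was known for all 1059 entries of kept sites over the 4 tables. It was the edited base at 35 entries, of which 34 were edited in 50% of reads or more, and the reference base at 1024, of which 0 reached 50% and the highest stood at 14.9%. The exception was a site of Rps2-ps9 in the libraries labelled fresh-frozen, edited in 1.4% of 143 reads. Sites listed at any depth where the parent has the edited base were few beside the sequence differences of all 183 copies. Only 32 to 51 copies had any listed site in each table. Copies and parents differed at 621 positions with A in the copy and G in the parent and at 297 with C in the copy and T in the parent, and 29 of these 918 positions, in 24 copies, were listed as sites in any table. Whether the reads at these sites came from the parent mRNA was not tested.

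The 12 distinct highly edited sites lay in 10 copies, and 4 sites were kept in all 4 tables. The site of Rpsa-ps10 at position 150072685 of chromosome 3, the base in capitals in the sequence above, was edited in 202 of 211 and 85 of 85 reads untreated, and in 228 of 232 and 161 of 161 reads with IgG in the fixed embryo. With G3BP1 it was edited in 288 of 289 and 231 of 235 reads. Pooled over libraries the share at this site was 98.5%, 99.5%, 99.15% and 100% in the 4 tables, so that copy reads with the reference base were nearly absent while the copy was listed at 103.2 to 2024 TPM. Rpl34-ps1 was edited in all 254 reads of its site at position 71124741 of chromosome 6 in the fixed embryo, a C-to-T site, and in all 150 and all 221 reads in E12.5 and E16.5 brain. Rpl7-ps9, at position 36668680 of chromosome X, was edited in 100% of reads in all 4 tables. Rpl36-ps12, Rps7-ps3, Rpl21-ps15, Rpl3-ps1, Rps2-ps10 and Rpl7-ps7 held 1 such site each at 97.9% to 100% pooled, in the tables that kept it.

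Intermediate values were few. Rps18-ps6 was edited in 63.3% of 30 reads at a site of the fixed embryo where the parent has the edited base, and Rps15a-ps4 in 19% of 21 reads at such a site of E16.5 brain. A site of Rps15-ps2 where the parent has the reference base was edited in 6 of 7 reads of the first IgG library of E12.5 brain and in 0 of 11 reads of the second. In the libraries labelled fresh-frozen the 3 sites of Rps19-ps6 stood at 79.7%, 92.9% and 92.2% of pooled reads, below the 98.3% to 100% of the other tables. Rps19-ps3 had 4.17% of 48 reads edited in these libraries at a site where Rps19 has the edited base.

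At the other kept sites of the copies the summed editing was 0.239% to 1.39% over the libraries. In the fixed embryo the edited share over these sites was 0.449% ± 0.00778 untreated, 0.328% ± 0.0636 with IgG and 0.419% ± 0.00849 with G3BP1 (SD, n = 2 each), beside 0.385%, 0.32% and 0.389% over all genes. In the libraries labelled fresh-frozen it was 0.837% ± 0.245 untreated, 0.988% ± 0.4 with IgG and 1.23% ± 0.226 with G3BP1 (SD, n = 2 each), beside 0.354%, 0.632% and 1.21% over all genes. In E12.5 brain it was 0.274% ± 0.0495 with IgG and 0.426% ± 0.0417 with G3BP1 (SD, n = 2 each), beside 0.169% and 0.331% over all genes and 0.174% and 0.311% over the parents. In E16.5 brain the copies had 0.323% ± 0.0311 with IgG and 0.42% ± 0.0106 with G3BP1 (SD, n = 2 each), beside 0.208% and 0.345% over all genes. The highly edited sites held 74.5% to 91.4% of all edited reads of the copies in each of the 20 libraries, beside 1.185% to 22.5% over all genes.

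The gene-wise test of editing called 1 copy. For each gene the reads with and without the edited base were totalled over its kept sites. A read over several sites was counted at each. The totals were compared with a quasi-binomial logistic model over all genes with 50 or more reads in every library. For G3BP1 against IgG in the fixed embryo 29 copies were tested, and Rps19-ps6 was the only gene called among all 5594, which is 0.0179%. In E16.5 brain 0 of 34 copies were called, beside 6.65% of all genes, in the libraries labelled fresh-frozen 0 of 10, beside 2.41%, and in E12.5 brain 0 of 29, beside 0.0%. The copies with an unadjusted p under 0.05 numbered 1, 0 and 0 in these 3 tables, beside 2126 of 11741, 1246 of 7836 and 171 of 5568 genes. In the fixed embryo 2 copies had such a p, beside 148 of 5594 genes. With limma on the empirical logit 0 copies were called in each of the 3 tables, beside 0, 0 and 1 of all genes. The median log2 odds ratio of the copies was 0.41, 0.42, 0.59 and 0.28 in the fixed embryo, the libraries labelled fresh-frozen, E12.5 and E16.5 brain, beside 0.31, 0.91, 0.61 and 0.65 over all genes. Without sites edited in 50% of reads or more, the medians of the copies were 0.41, 1.13, 0.90 and 0.51 in the same order. Over all genes they were then 0.31, 0.92, 0.62 and 0.66. For IgG against untreated 0 of 29 copies were called in the fixed embryo, beside 0.0% of all genes, and 0 of 10 in the libraries labelled fresh-frozen, beside 0.242%. There 1 and 0 copies had an unadjusted p under 0.05, beside 138 of 5594 and 544 of 7836 genes. Again limma on the empirical logit called 0 copies, and 0 of all genes.

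Rps19-ps6 is a copy of Rps19, a small subunit gene mutated in Diamond-Blackfan anaemia, at chr12:110898114-110898551 inside Tecpr2 on the same strand. It was at 98.86% identity with 5 mismatches to its parent. Its edited share in the fixed embryo over 8 kept sites was 21.7% and 22.8% untreated, 19.8% and 16.6% with IgG and 34.3% and 22% with G3BP1. The first G3BP1 library alone stood apart, and the second lay within the untreated range. The log2 odds ratio of G3BP1 over IgG was 0.83 ± 0.10 (SE, quasi-binomial model, adjusted p = 1.04e-13). The G3BP1 libraries disagreed, at 34.3% and 22%, and the model moderated the dispersion of this gene over all genes. The SE and p therefore understate the spread between its libraries, and no difference between antibodies is concluded from them. The parent Rps19 had 0.59 ± 1.03 in the same comparison (adjusted p = 0.938).

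The reads of Rps19-ps6 were then split by site. The 2 neighbouring A-to-G sites at positions 110898482 and 110898485 of chromosome 12, both in capitals in the sequence above, were edited in every read of all 6 libraries. Reads were summed over the kept sites, so a read was counted at each site it covered. In the first G3BP1 library 614 of this sum of 1791, or 34.3%, lay at the 2 neighbouring sites, where 307 reads covered each. The same share was 19.65% and 16.2% with IgG, 21.9% in the second G3BP1 library and 21.5% and 22.5% untreated. At the other 6 sites 0 of 1177 and 2 of 1134 reads were edited with G3BP1, 2 of 1304 and 5 of 922 with IgG and 2 of 998 and 1 of 337 untreated. Without sites edited in 50% of reads or more the log2 odds ratio was -1.64 (adjusted p = 0.912), and without the first G3BP1 library it was 0.32 (adjusted p = 0.937). The TPM of Rps19-ps6 in the fixed embryo was 418.1 and 470 untreated, 318.1 and 317.1 with IgG and 662.7 and 558.2 with G3BP1, a log2 change of 0.94 ± 0.11 over IgG (SE, limma adjusted p = 0.0962).

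**Figure D4:**
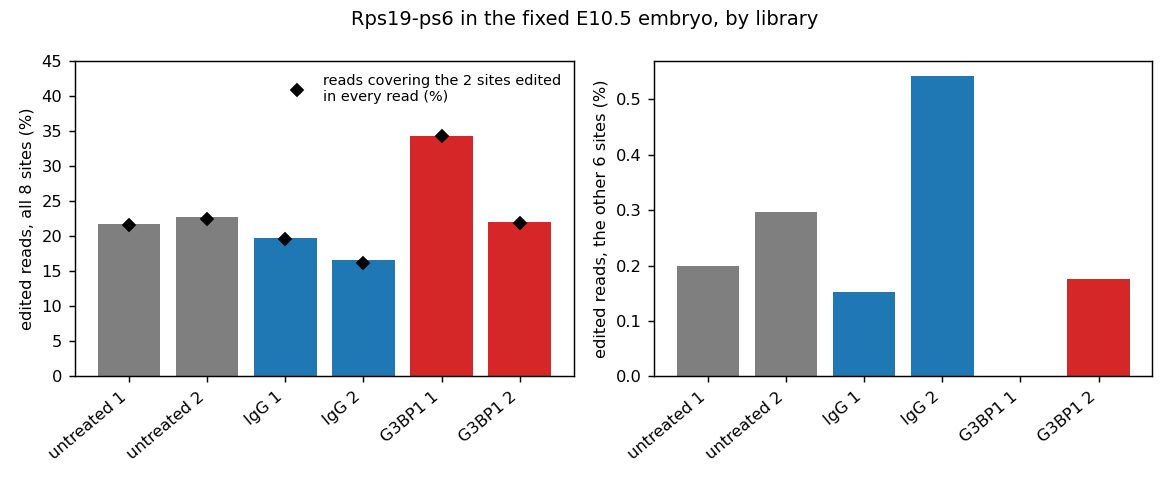
Rps19-ps6 in the 6 libraries of the fixed embryo. Left, percentage of reads with the edited base, summed over its 8 kept sites (bars). Diamonds show the percentage of this sum of reads that lies at the 2 sites edited in every read. Right, percentage with the edited base at the other 6 sites, on its own scale, which is 0 in the first G3BP1 library. A read is counted at each site it covers.

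Many copies fell between the brain stages. The deposited TPM of Rps6-ps4 was 861.6, 706.3, 1412 and 1378 in the 4 E12.5 libraries and 272.6, 314, 370.1 and 368.7 in the 4 E16.5 libraries. Over all 132 copies tested, 70 fell, beside 17.7% of all genes, and 2 rose, beside 32.3%. The test was limma over all genes of the 8 libraries, with the antibody as a covariate and TPM rescaled over the genes listed in both tables, since the tables were normalized separately. The median log2 change was -1.05 over the copies tested, -0.31 over the parents and 0.17 over all genes. Of the parents 29 of 56 fell and 3 rose, and of the 82 ribosomal protein genes 46 fell and 2 rose. Of the 70 copies that fell, 42 had a parent that fell as well and 28 a parent that was not called. Copies that passed the TPM rule at 1 stage only had to differ; 61 of the 70 passed it at both stages, and 9 in E12.5 brain only.

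**Figure D5:**
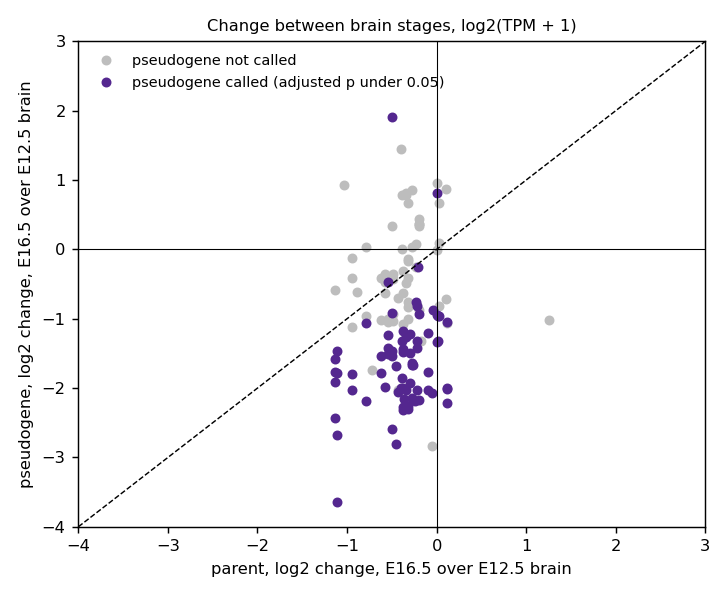
Change between the brain stages, E16.5 over E12.5 on the log2(TPM + 1) scale, of each pseudogene (vertical axis) against its parent (horizontal axis); the dashed line marks equal change. Most points, 97 of 132, lie below the line, and the called copies (purple) lie between -3.64 and -0.25 apart from 2 that rose.

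The copies with the smallest p were high ones. Rps2-ps10 had 376, 365, 510.8 and 562.1 TPM at E12.5 and 94.7, 123.2, 135.2 and 123.7 TPM at E16.5, and changed by -1.91 against -1.13 for Rps2 (limma adjusted p = 2.68e-06). Rpsa-ps10 fell from 1193 to 2024 TPM at E12.5 to 327.2 to 471.6 TPM at E16.5, a change of -1.995 beside -0.37 for Rpsa. No library of 1 stage overlapped the other for either copy. Rpl3-ps1, on chromosome X, a copy of the gene for a protein of the peptidyl transferase centre, changed by -1.98 beside -0.57 for Rpl3. Rps12-ps3, annotated as protein-coding and identical to Rps12 over its length, changed by -2.03 beside -0.34. For Rps16-ps2 the change was -1.49 beside -0.29, and for Rps6-ps4 -1.66 beside -0.28, where Rps6 was not called (adjusted p = 0.243). Rps19-ps6 changed by -2.18 while its host Tecpr2 changed by 0.80.

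Only 2 copies rose. Rpl9-ps8 was listed at 0 in all 4 E12.5 libraries and at 3.12, 1.63, 3.07 and 3.44 TPM at E16.5. It passed the TPM rule through the E16.5 libraries alone and so had to differ. Rpl10-ps5, inside Nup93, had 0, 0, 2.27 and 1.73 TPM at E12.5 and 1.09, 1.42, 3.14 and 3.01 TPM at E16.5, with overlapping libraries. The tissue changed between these stages as well: 4 neuronal genes summed to 2570 to 3060 TPM at E12.5 and 4370 to 4470 TPM at E16.5, and 4 globin genes to 5390 to 6940 and 1410 to 1520 TPM. Their part in the fall of the copies was not tested, and fewer cells of a type and less RNA per cell cannot be told apart in bulk samples. The part of parent reads placed on the copies in this fall was not tested either. Within each antibody the summed TPM of the copies was lower at E16.5, at 14300 ± 1595 against 5601.5 ± 849.2 for IgG and 22024 ± 2495 against 6227 ± 224.9 for G3BP1 (SD, n = 2 each).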

How the data were processed

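Expression was deposited by the authors as TPM per gene, in 1 table for each of the 4 tissue sets, and editing as whole-number counts of edited and covering reads per site and library, per the file headers. The submitters' processing notes list featureCounts 2.0.1, Subread, GATK 4.5.0.0, HISAT2 2.2.1, BWA 0.7.17 and Picard 3.1.1, and the mm10 (GRCm38) build. How reads that map to several places were treated, and by which rule a site was listed, is not given in the sources used here. Repeated lines of a site were removed. Expression was tested with limma 3.58.1 (R 4.3.3, trend) on log2(TPM + 1) over genes at 1 TPM or more in at least 2 libraries, so fold changes of low genes are understated. Editing was tested with a quasi-binomial logistic model per gene, with 0.25 reads added to edited and unedited counts and dispersions moderated by limma. Both used all libraries of a table and called an adjusted p under 0.05 (Benjamini-Hochberg), after a check on simulated data. That check drew editing counts with no spread between libraries and gave every gene the same spread of expression. It therefore cannot show how the tests behave where replicates of a gene disagree. Copies were aligned locally to parents with Biopython 1.88 (match 1, mismatch -1, gap opening -3, extension -1). Mean reads per kept site of the copies were 29 to 199 over the libraries, and intervals cover counting error only. Named genes were the 12 copies of highest TPM, up to 8 with most highly edited sites and up to 6 by smallest p per comparison, and others were named after their values were seen. The pseudogenes, gene lists and tests were chosen with earlier results of these data known.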

Additional observations from a re-analysis of the deposited data

Results flagged for a closer look

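The summed TPM of the pseudogenes relative to that of their parents moved in opposite directions between the fixed embryo or E12.5 brain and the libraries labelled fresh-frozen, and the differences between tables were not tested. G3BP1 over IgG gave a ratio of 1.3 in the fixed embryo and 1.83 in E12.5 brain, with both G3BP1 libraries above both IgG libraries. In the embryo libraries labelled fresh-frozen the same ratio was 0.776, with both G3BP1 libraries below both IgG libraries. IgG over untreated gave 0.879 in the fixed embryo and 1.47 in the libraries labelled fresh-frozen, again with groups that did not overlap. In E16.5 brain IgG (42.05% and 47.71%) and G3BP1 (48.78% and 45.62%) overlapped.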

How the results depend on the processing

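The stage comparison called 72 copies, beside 10089 of 20162 genes. Its alternatives called 64 to 81 copies, beside 8385 to 10358 genes. For editing with G3BP1 against IgG in the fixed embryo the 1 call became 0 with limma on the empirical logit and 0 without sites edited in 50% of reads or more, where Rps19-ps6 turned to -1.64, and it was 0 to 1 when single libraries were left out. Leaving out single libraries gave 0 to 8 calls for G3BP1 against IgG in E12.5 brain, 0 to 19 for IgG against untreated in the fixed embryo and 3 to 10 in place of 16 in the libraries labelled fresh-frozen; the cause was not tested. With 20 or more reads per site the highly edited share was 3.03% in every group of the fixed embryo, 3.23% in the libraries labelled fresh-frozen, 2.04% in E12.5 and 2.44% in E16.5 brain, over fewer sites. With a limit of 20% of reads it was 5.11% in untreated fixed embryo, 2.56% with IgG and 2.88% with G3BP1 in E16.5 brain. Without the copy of highest TPM the copies' percentage of parent TPM was 36.77 (IgG), 50.14 (G3BP1) and 43.64 (untreated) in the fixed embryo, 68.9 (IgG), 52.7 (G3BP1) and 45.77 (untreated) in the libraries labelled fresh-frozen, 69.47 (IgG) and 127.8 (G3BP1) in E12.5 brain, and 37.8 (IgG) and 40.33 (G3BP1) in E16.5 brain. Same-numbered replicates did not deviate together (correlations -0.0377 to 0.0365), which cannot show whether they shared an animal or a batch. With a replicate block the stage comparison called 71 copies, beside 9761 of 20162 genes. IgG against untreated in the libraries labelled fresh-frozen then called 12, beside 1732 of 23545 genes.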
